A study of Rattus norvegicus with 48 samples.

Results

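The cluster of differentiation, or CD, system numbers the molecules by which antibodies tell leukocytes and other cells apart. The genes described here are the rat genes whose symbol is Cd followed by a number. They were taken from the array annotation by symbol, among probe sets with 1 gene symbol. The rule left out Cd4, Cd44, Cd53 and Cd74, and was set with earlier results of these data known. It used no measured value itself, except that the probe set with the highest mean was kept where a gene had several. The rule found 39 probe sets for 38 genes, of 7589 genes with a symbol on the array. Of these genes, 37 had 1 probe set and Cd244l1 had 2. The whole family matched the RefSeq rat annotation by Entrez identifier under the same symbol. By their known roles, 13 are antigens of T cells and natural killer cells, 2 of B cells, 4 of myeloid cells or leukocytes at large, 4 are costimulatory or checkpoint ligands, 5 are tetraspanins, 2 are complement regulators and 7 are other membrane antigens. The last, Cd2ap, came in by its symbol and is no surface antigen: it encodes an adaptor protein of the podocyte slit diaphragm, the filter of the glomerulus. Cd48 is counted with the T cell and natural killer cell antigens, although leukocytes at large carry it.

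The RNA came from kidneys of male rats, aged 12 weeks per the sample labels, of the strains FL, F, LF and L, letters that the labels do not explain. Animals of every strain were gavaged with indole-3-carbinol (100 mg per kg body weight daily) over 7 days (day 7) or 10 days (day 10), or with the vegetable oil carrier alone (day 0). Indole-3-carbinol, from cabbage and related vegetables, gives rise in the stomach to ligands of the aryl hydrocarbon receptor, a transcription factor. There were 48 arrays, 4 for each of the 12 groups, and the labels give 8 rats per group without saying whether an array held 1 rat or a pool, so p-values measure the spread between these arrays.

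Most CD molecules act at contacts between immune cells. T cells recognise antigen through a receptor that signals through the CD3 and CD247 chains, are steadied by co-receptors such as CD8, and need a further signal from CD28 when it meets CD80 or CD86. Other members restrain phagocytes: CD200 on many tissue cells binds CD200R1 on myeloid cells, and CD47 binds SIRP alpha. A healthy kidney holds few lymphocytes and a network of resident macrophages, while tetraspanins, CD24, CD164 and CD47 are also made by its epithelium or endothelium.

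Within a strain, 3 members differed between a treated day and day 0: Cd200, Cd48 and Cd24. The 250 bases before the annotated start of each are shown because the aryl hydrocarbon receptor binds sites with the core GCGTG, and because interferon-responsive genes often carry GAAA, any 2 bases and GAAA near the start, called the interferon core here. They are RefSeq sequence of the GRCr8 assembly, read 5′ to 3′ on the plus strand on which all 3 genes lie, and not sequence of the rats studied. The window of Cd200 is chr11:68916065-68916314, that of Cd48 is chr13:86717744-86717993, and that of Cd24 is chr20:48656227-48656476. Capitals mark GCGTG in Cd200 and the interferon core, as written or as its reverse complement, in Cd48.
Cd200: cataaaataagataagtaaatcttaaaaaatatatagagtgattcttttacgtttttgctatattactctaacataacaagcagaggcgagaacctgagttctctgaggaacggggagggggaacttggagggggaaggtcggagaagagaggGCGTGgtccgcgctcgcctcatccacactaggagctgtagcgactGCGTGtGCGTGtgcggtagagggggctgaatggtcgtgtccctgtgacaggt
Cd48: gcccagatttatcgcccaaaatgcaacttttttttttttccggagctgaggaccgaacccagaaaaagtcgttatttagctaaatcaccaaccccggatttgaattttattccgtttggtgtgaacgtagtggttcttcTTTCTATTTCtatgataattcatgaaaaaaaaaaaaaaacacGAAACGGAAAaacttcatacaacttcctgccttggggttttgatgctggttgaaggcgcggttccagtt
Cd24: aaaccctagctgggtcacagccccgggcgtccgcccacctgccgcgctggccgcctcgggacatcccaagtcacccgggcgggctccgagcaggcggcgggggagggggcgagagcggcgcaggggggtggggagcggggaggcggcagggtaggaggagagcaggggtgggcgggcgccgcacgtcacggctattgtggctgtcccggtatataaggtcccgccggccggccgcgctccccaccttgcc
The Cd200 window held GCGTG 3 times, with first bases 97, 52 and 46 bases before the start. The Cd48 window held the interferon core once as printed, 69 bases before the start, and once as its reverse complement, 111 bases before it, with no overlap between them. The Cd24 window, of which 75.6% was G or C against 49.2% for Cd200 and 39.2% for Cd48, held neither motif, and none of the 3 windows held TATAAA. On both strands and in windows of the same length, GCGTG was present in 25.9% of 33469 rat promoters, the interferon core in 3.41% and TATAAA in 12.9%. A match describes the letters and is no measured binding site.

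The values were log2 signals of 8797 probe sets. Array medians lay between 5.66 and 6.06, the SD over probe sets of an array between 2.29 and 2.54, and correlations within a group between 0.979 and 0.992. Proximal tubule markers, of which 11 of 16 were measured, averaged 11.26 to 11.47 on the log2 scale in the LF groups and had 0 genes in the lowest 25% of probe sets. The 5 arrays of lowest SD were FL day 10 replicate 4, F day 10 replicate 4, FL day 7 replicates 3 and 4, and LF day 7 replicate 3, and calls that were lost or gained without them are given both ways. Replicate numbers 1 to 4 stand for 4 runs of 12 arrays, 1 of each group, as the array names in the labels show.

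The mean signals of the antigens ran from bright to dim on the array. The highest mean log2 signals over the 48 arrays belonged to the sialomucin Cd164 at 10.68, the tetraspanins Cd81 at 10.41 and Cd82 at 10.21, the anchored mucin-like antigen Cd24 at 10.04, and the endosomal tetraspanin Cd63 at 9.67. The lowest belonged to Cd40lg, the CD40 ligand of activated helper T cells, at 2.40, the natural killer cell receptor Cd244l1 at 2.64, the myeloid receptor Cd200r1 at 2.74, the adhesion receptor Cd2 at 3.06 and the activation antigen Cd69 at 3.14. Probes differ in how brightly they bind, so these signals do not rank transcript amounts between genes. Of the 38 members, 10 had a mean in the highest 25% of probe sets and 8 in the lowest 25%, at or below 3.64. Those 8 were Cd8b, Cd46, Cd96, Cd69, Cd2, Cd200r1, Cd244l1 and Cd40lg, and 6 of them are lymphocyte antigens. The median SD within groups was 0.18 for the members and 0.21 for all probe sets.

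In the mean of the 4 strains, treatment moved 1 of the 38 genes past the test, and that by little. Cd200 was lower at day 7, by a log2 difference of -0.29 ± 0.087 (standard error, a fold of 0.819, 16 arrays against 16, limma adjusted p = 0.0433). Each difference below is a log2 difference ± standard error from 1 limma fit to all arrays, with p-values adjusted over all probe sets by the method of Benjamini and Hochberg and called at 0.05 or less. At day 7, 0 members rose and 1 fell, which is 2.63% of the members against 4.94% of all probe sets called, of which 3.75% fell. At day 10, 0 rose and 0 fell, against 2.41% of all probe sets, and between day 10 and day 7 the count was again 0, against 0.114%. At an unadjusted p under 0.05 there were 7 members at day 7 (20.5% of all probe sets), 8 at day 10 (9.44%) and 6 for day 10 against day 7 (13.6%). The median difference of the members was -0.006 at day 7 and -0.004 at day 10, beside -0.029 and -0.003 for all probe sets. The surplus of falls over all probe sets at day 7 depended on processing: with array SD as a covariate, 5.6% were called and 2.56% fell. The 95% intervals of the single members reached at most from -0.49 to 0.32 at day 7 and from -0.43 to 0.47 at day 10, so larger changes in the mean of the strains lie outside all of them.

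**Figure D1:**
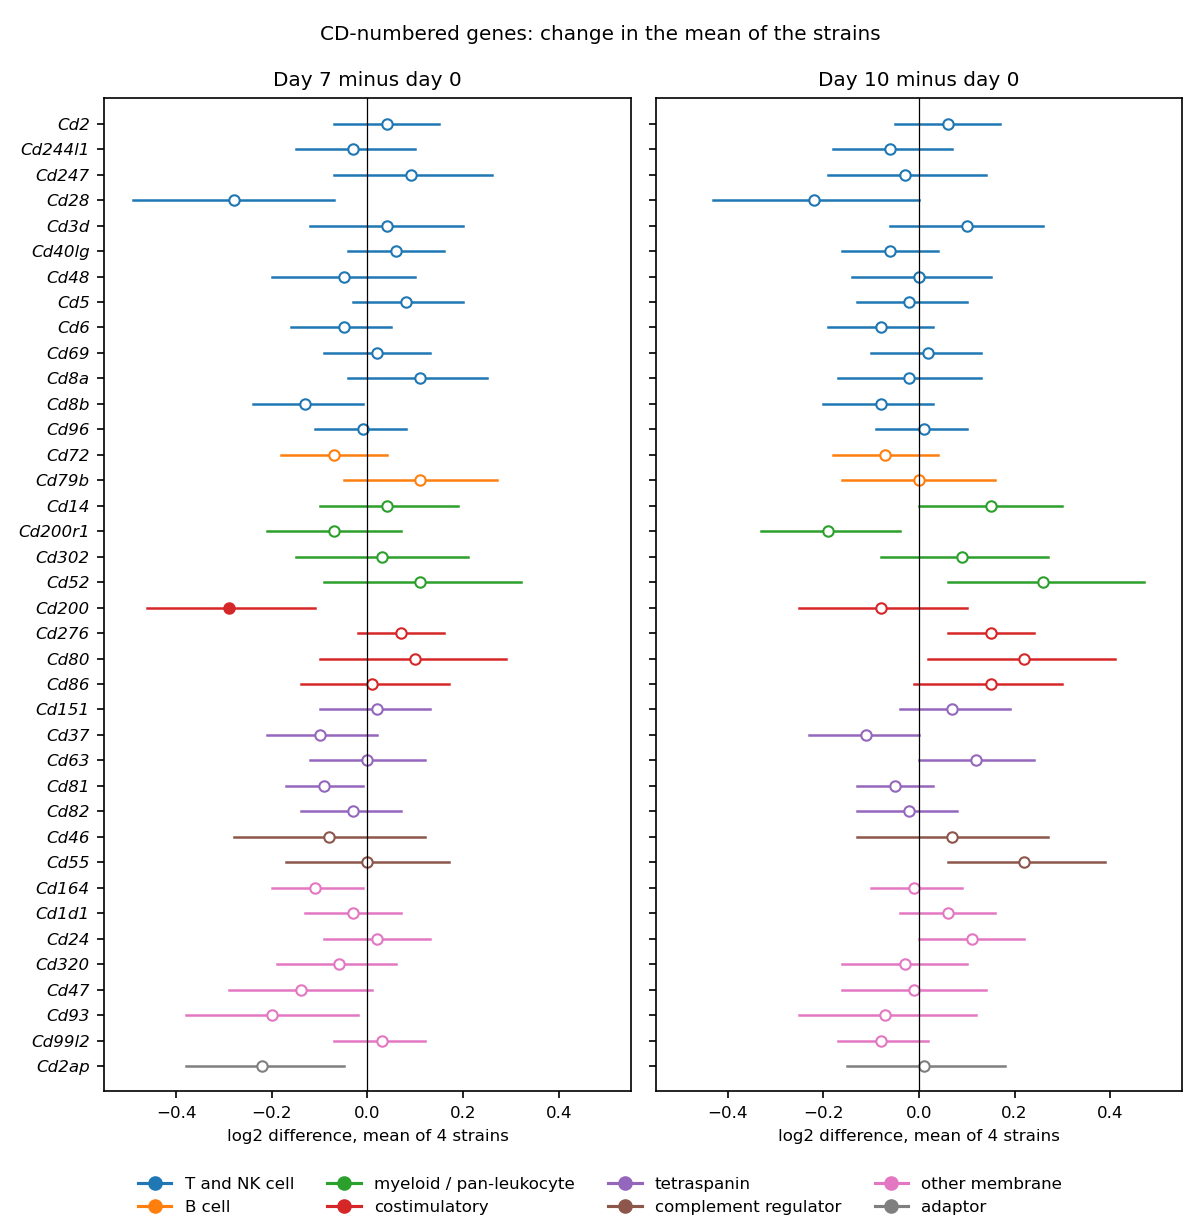
Log2 difference of each CD-numbered gene from day 0, averaged over the 4 strains with equal weight, at day 7 (left) and day 10 (right). Points are estimates, lines are 95% intervals from the limma fit, colours are role groups, and a filled point has an adjusted p of at most 0.05: Cd200 at day 7 is the only one, at -0.29.

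Among the 13 antigens of T cells and natural killer cells, 0 rose and 0 fell at either day in the strain mean. Cd28, the costimulatory receptor of T cells, stood lowest, at -0.28 ± 0.11 on day 7 (adjusted p = 0.118) and -0.22 ± 0.11 on day 10 (adjusted p = 0.508). The receptor chains Cd3d and Cd247 differed by 0.04 ± 0.079 and 0.09 ± 0.081 at day 7, and the CD8 chains Cd8a and Cd8b by 0.11 ± 0.073 and -0.13 ± 0.056. Cd8a and Cd8b are next to each other on chromosome 4, as are Cd5 and Cd6 on chromosome 1, and none of these 4 passed the test at either day. Cd2, Cd5, Cd6, Cd40lg, Cd48, Cd69, Cd96 and Cd244l1 lay between -0.05 and 0.08 at day 7. The other probe set of Cd244l1 differed by -0.06 at day 7 (adjusted p = 0.616) and 0.07 at day 10 (adjusted p = 0.872). The B cell antigens Cd72, an inhibitory receptor, and Cd79b, a chain of the B cell receptor, differed by -0.07 ± 0.053 and 0.11 ± 0.079 at day 7.

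Of the 4 myeloid and pan-leukocyte antigens, 0 passed the test in the strain mean. The lymphocyte and monocyte glycoprotein Cd52 had the highest difference of the family at day 10, 0.26 ± 0.10 (adjusted p = 0.258). The lipopolysaccharide co-receptor Cd14 differed by 0.15 ± 0.073 at day 10, the lectin receptor Cd302 by 0.09 ± 0.088, and Cd200r1, the receptor for CD200, by -0.19 ± 0.07 (adjusted p = 0.241). The ligands Cd80 and Cd86 of CD28 differed at day 10 by 0.22 ± 0.098 (adjusted p = 0.434) and 0.15 ± 0.077 (adjusted p = 0.572). The checkpoint molecule Cd276 came closest to the threshold at day 10, at 0.15 ± 0.044 (adjusted p = 0.0556, range over the alternatives 0.0221 to 0.169), and passed it with the array run as a block (adjusted p = 0.0379).

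The 5 tetraspanins, small membrane proteins that organise receptors and integrins, gave 0 calls at either day in the strain mean, with differences from -0.10 (Cd37) to 0.02 (Cd151) at day 7 and from -0.11 (Cd37) to 0.12 (Cd63) at day 10. The complement regulators Cd46, a cofactor for complement inactivation, and Cd55, the decay accelerating factor, differed by 0.07 ± 0.099 and 0.22 ± 0.082 at day 10 (adjusted p of Cd55 = 0.209). The Cd55 difference at day 10 passed the test with array medians subtracted (adjusted p = 0.0291), with array SD as a covariate (0.00549) and without the 5 arrays of lowest SD (0.28 ± 0.077, adjusted p = 0.0361). Of the 7 other membrane antigens, the endothelial lectin-like receptor Cd93 differed by -0.20 ± 0.09 at day 7 (adjusted p = 0.199), Cd164 by -0.11 ± 0.047 (adjusted p = 0.176) and Cd47 by -0.14 ± 0.074 (adjusted p = 0.283). Cd1d1, which presents lipid antigens, Cd24, the CD99 homologue Cd99l2 and the transcobalamin receptor Cd320 lay between -0.06 and 0.03. The adaptor Cd2ap differed by -0.22 ± 0.082 at day 7 (adjusted p = 0.119). With the array run as a block, 3 members were lower at day 7, where that fit called 11.1% of all probe sets and 8.95% were lower, which adds Cd164 (adjusted p = 0.0257) and Cd2ap (adjusted p = 0.0324) to Cd200 (adjusted p = 0.0165).

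By strain, the Cd200 difference at day 7 was -0.14 ± 0.17 in FL, -0.02 ± 0.17 in F, -0.78 ± 0.17 in LF and -0.22 ± 0.17 in L, and it passed the test in LF. The responses were not shown to differ between strains: the strain by day F test gave Cd200 an adjusted p of 0.629, and the day 7 response of FL minus that of LF was 0.64 ± 0.25 (limma adjusted p = 0.674). On runs 1 to 4, the strain mean differed by -0.06, -0.18, -0.46 and -0.45. The call in the strain mean was lost in 24 of 52 fits that left out 1 array or 1 run (adjusted p 0.0188 to 0.309), with array SD as a covariate (-0.16 in place of -0.29, adjusted p = 0.0858) and without the 5 arrays of lowest SD (0.192).

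Within single strains, calls were few and stood in LF kidneys. At day 7, 2 members fell in LF, Cd200 and Cd48, which is 5.26% of the members against 2.26% of all probe sets called there, of which 1.88% fell. At day 10, 1 member rose in LF, Cd24, which is 2.63% against 0.887%, of which 0.591% rose. In FL, F and L the count was 0 at day 7, against 0.159%, 0.671% and 0.0114% of all probe sets, and 0 at day 10, against 0.0909%, 0.239% and 0.0114%. At an unadjusted p under 0.05 there were 7 members in LF at day 7 (19% of all probe sets) and 4 at day 10 (6.6%). At that threshold FL had 2 members at day 7 (6.21%) and 2 at day 10 (4.24%), F had 2 (6.92%) and 2 (9.36%), and L had 1 (4.01%) and 2 (4.3%). The fit with the array run as a block gave 4 falls in LF at day 7, where it called 8.21% of all probe sets and 7.2% were lower. The median of the members in LF was -0.111 at day 7, with -0.062 for all probe sets, and -0.009 at day 10, with 0 for all. With a second quantile normalization, 4.48% of all probe sets were called in LF at day 7 and 2.35% were lower.

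**Figure D2:**
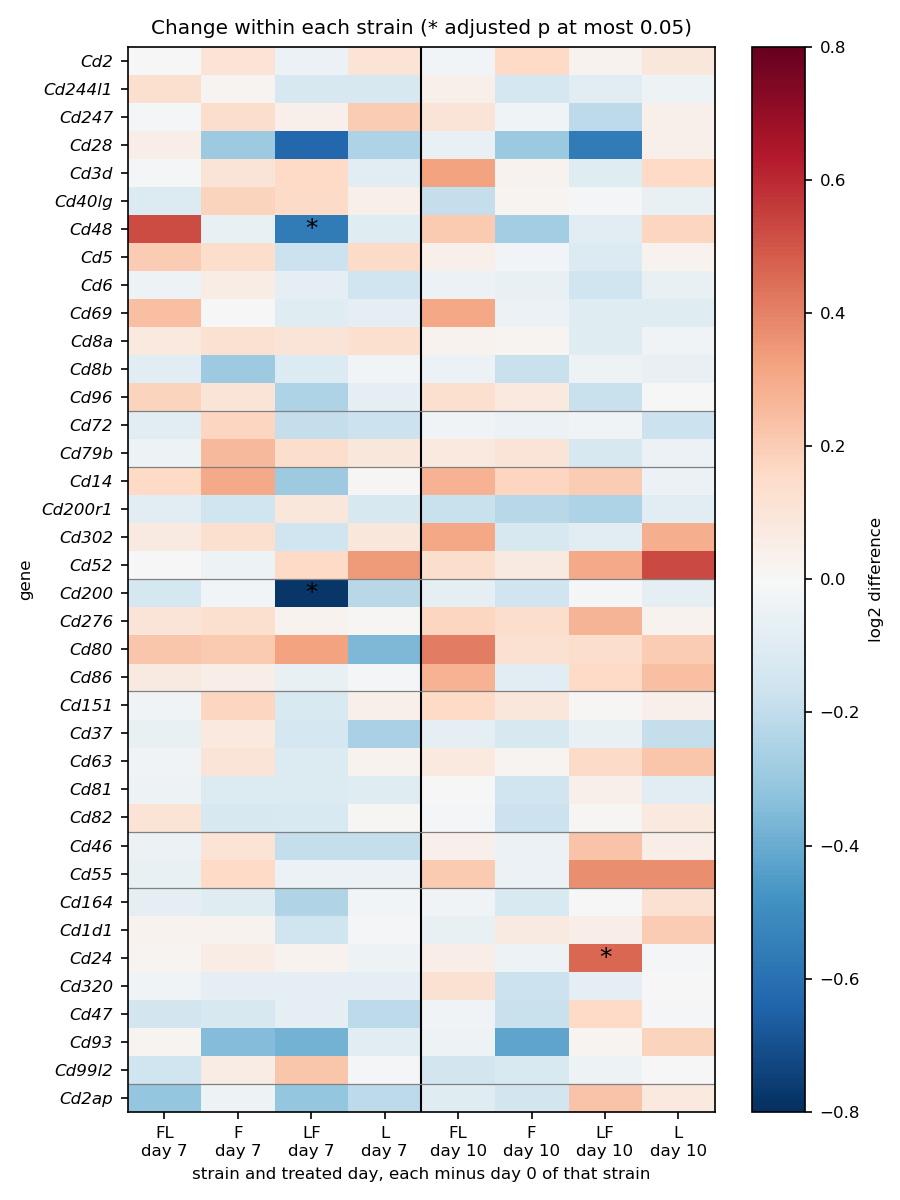
Log2 difference of each CD-numbered gene from day 0 of the same strain, by strain, at day 7 (left 4 columns) and day 10 (right 4 columns), with genes grouped by role between the grey lines. Stars mark an adjusted p of at most 0.05, and stand at Cd200 and Cd48 in LF at day 7 and at Cd24 in LF at day 10.

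Cd200 encodes a ligand that quiets myeloid cells through CD200R1. In LF kidneys its log2 signal was 6.79, 6.65, 6.27 and 6.27 at day 7 on runs 1 to 4, against 7.34, 7.35, 7.21 and 7.19 at day 0. All 4 treated arrays lay below all 4 carrier arrays. The means were 6.50 ± 0.27 at day 7 and 7.27 ± 0.084 at day 0 (SD, n = 4 each), a difference of -0.78 ± 0.17 (95% interval -1.13 to -0.43, fold 0.583, limma adjusted p = 0.00922). Cd200 was lower on every run, at -0.55, -0.70, -0.94 and -0.92. At day 10 the LF arrays read 7.45, 7.28, 7.35 and 6.98, with a mean of 7.27 ± 0.20 (SD, n = 4), and overlapped day 0. The call at day 7 held under all 7 alternative settings (adjusted p 0.00117 to 0.0159), with a difference of -0.51 ± 0.11 under array SD as a covariate, and was lost without replicate 2 (0.146), without replicate 3 (0.132) or without LF day 7 replicate 3 (0.0539). Its receptor Cd200r1, dim on this array, did not pass the test in any strain.

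Cd48, a SLAM family ligand anchored on the surface of leukocytes, fell in LF at day 7. Its response there differed from that in FL by a test chosen after the values were seen. In LF its log2 signal was 8.66, 8.30, 7.99 and 8.26 at day 7, against 9.11, 8.99, 8.70 and 8.66 at day 0. The highest treated array equalled the lowest carrier array. The LF means were 8.30 ± 0.28 at day 7 and 8.87 ± 0.22 at day 0 (SD, n = 4 each), a difference of -0.56 ± 0.15 (95% interval -0.86 to -0.27, fold 0.677, limma adjusted p = 0.0269), with every run lower, at -0.45, -0.69, -0.71 and -0.40. This call was lost with array SD as a covariate (0.0596), without the 5 arrays of lowest SD (0.0748) and in 7 of 52 fits that left out an array or a run (up to 0.372).

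In FL the Cd48 signal was 8.83, 8.89, 8.87 and 8.99 at day 7, against 8.39, 8.39, 8.19 and 8.53 at day 0. All 4 treated arrays lay above all 4 carrier arrays, as happened for 3.38% of all probe sets in this comparison, in one direction or the other. The difference was 0.52 ± 0.15 (95% interval 0.22 to 0.82), which did not pass the test over all probe sets (limma adjusted p = 0.307), and passed with array medians subtracted (0.00993), a second quantile normalization (0.00163) or array SD as a covariate (0.00236). The difference between the responses of FL and LF at day 7, chosen for testing after these values were seen, was 1.08 ± 0.21 (limma adjusted p = 0.00978), and Cd48 was 1 of 10 probe sets called there, or 0.114%. It held in the 4 repeats of that test, with an adjusted p of 0.00673 with the run as a block and 0.0499 without the 5 arrays of lowest SD. The strain by day F test, which asks whether any response differs between strains, called 0 members against 0.193% of all probe sets. Cd48 stood next to the threshold there (F = 6.17, adjusted p = 0.0515), and passed in 6 of 7 alternatives, among them the run as a block (0.0309). Without the 5 arrays of lowest SD it did not pass (0.229), and the lowest value was 0.00313. In F the Cd48 arrays read 9.13, 9.03, 8.91 and 8.80 at day 7 and 8.68, 9.08, 9.26 and 9.09 at day 0, and in L they read 8.78, 8.19, 8.50 and 8.60 at day 7 and 8.59, 8.69, 8.71 and 8.49 at day 0. Both pairs overlapped.

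Cd24 encodes a small, heavily glycosylated antigen of B cells, granulocytes and epithelium. In LF its log2 signal was 10.45, 10.20, 10.02 and 10.39 at day 10, against 9.88, 9.98, 9.65 and 9.71 at day 0. All 4 day 10 arrays lay above all 4 carrier arrays. The means were 10.27 ± 0.20 at day 10 and 9.80 ± 0.15 at day 0 (SD, n = 4 each), a difference of 0.46 ± 0.11 (95% interval 0.24 to 0.68, fold 1.38, limma adjusted p = 0.0193), with every run higher, by 0.57, 0.22, 0.37 and 0.68. At day 7 the LF arrays read 9.91, 9.83, 9.71 and 9.88, within the range of day 0. In the other strains Cd24 at day 10 overlapped day 0, for example 10.08, 10.11, 10.15 and 9.89 in FL at day 10 and 10.15, 10.06, 9.79 and 10.05 in FL at day 0. The day 0 mean of LF was the lowest of the 4 strains for this gene. The call held under all 7 alternative settings (adjusted p 0.00041 to 0.0148) and was lost in 7 of 52 fits that left out an array or a run (up to 0.248).

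**Figure D3:**
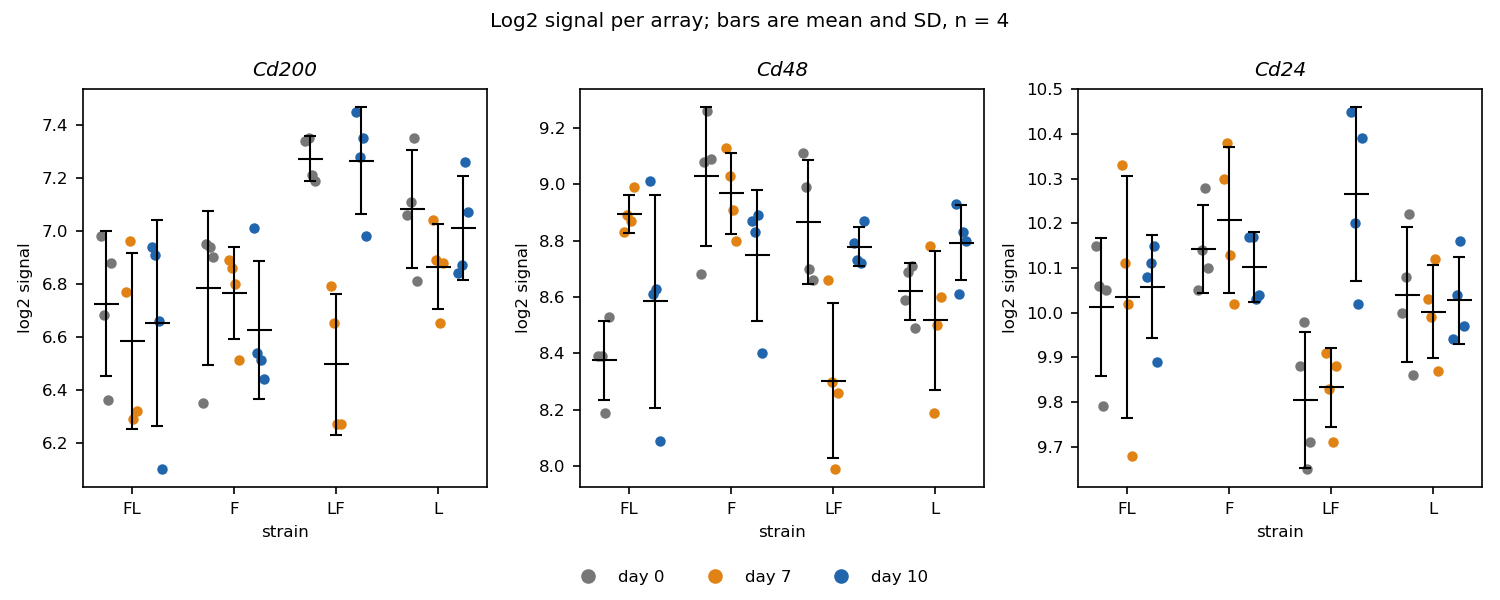
Log2 signal of Cd200, Cd48 and Cd24 on each of the 48 arrays, by strain and day, with the mean and SD of the 4 arrays of a group as bars and an axis for each gene. The LF arrays of day 7 lie below the other LF days for Cd200, with a mean of 6.50, the day 7 arrays lie above day 0 in FL and at or below it in LF for Cd48, and the LF arrays of day 10 are highest among LF for Cd24, with a mean of 10.27.

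Some members had treated and carrier groups that did not overlap. Apart from Cd200 at day 7 and Cd24 at day 10 in LF, these did not pass the test. In LF at day 7, Cd200, Cd28 and Cd93 lay below day 0 on all arrays, which is 7.89% of the members against 8.73% of all probe sets. Cd28 in LF was 5.75, 5.85, 5.36 and 5.50 at day 7, against 6.35, 6.24, 6.09 and 6.29 at day 0. It was lower on each run, with a difference of -0.63 ± 0.21 (limma adjusted p = 0.104), and passed with the run as a block (adjusted p = 0.0413), as did Cd164 in LF (-0.24, adjusted p = 0.0228). Cd28 remained below all day 0 arrays in LF at day 10, at 5.91, 5.36, 5.77 and 5.70, with a difference of -0.56 ± 0.21 (adjusted p = 0.398). In LF at day 10, Cd24 and Cd276 lay above and Cd28 below, 7.89% of the members against 5.16% of all probe sets. Cd276 read 7.00, 7.16, 6.93 and 7.01 there, against 6.79, 6.73, 6.79 and 6.70 at day 0 (0.27 ± 0.089, adjusted p = 0.197). In F at day 7, Cd72 lay above and Cd81 below (5.26% against 5.68%), and at day 10 Cd81 lay below again (2.63% against 4.84%). In L, Cd37 lay below at day 7 (2.63% against 1.94%) and Cd55 above at day 10 (2.63% against 2.33%), and in FL, Cd14 lay above at day 10 (2.63% against 1.63%). Against the share of all probe sets, none of these counts of 1 to 3 members sets the family apart.

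Whole kidney RNA does not separate fewer cells of a type from less RNA per cell. Markers of T cells and natural killer cells outside the family, of which 10 of 22 were measured, gave 0 calls in LF at day 7, where their mean log2 level was 4.38 (range over arrays 4.32 to 4.46) against 4.50 (4.41 to 4.57) at day 0. Of the 13 measured macrophage and dendritic cell markers of 26 listed, 3 fell in LF at day 7: Adgre1 at -0.93 (adjusted p = 0.0114), Aif1 at -0.55 (0.0129) and Mpeg1 at -0.90 (0.0137). Their mean level in LF was 5.88 (5.77 to 5.98) at day 7 and 6.17 (5.99 to 6.32) at day 0, with no overlap. Of all probe sets, 2.26% were called in LF at day 7 and 1.88% fell, and 8.73% taken singly did not overlap. The median difference of all probe sets there was -0.062, or 0.009 after a second quantile normalization. In FL, the Cd48 arrays of day 7 lay above those of day 0 without passing the test (limma adjusted p = 0.307). The mean level of the macrophage and dendritic cell markers in FL was 5.83 (5.76 to 5.92) at day 7 and 5.75 (5.71 to 5.79) at day 0, with 0 markers called. In L, where Cd48 overlapped day 0, it was 5.86 (5.70 to 6.02) at day 7 and 6.10 (5.86 to 6.23) at day 0, with 0 called. In F it was 5.93 (5.77 to 6.15) at day 7 and 5.90 (5.76 to 6.02) at day 0, with 1 higher, Gpnmb. In the strain mean at day 7, 1 of the 13 was higher and 3 were lower. Endothelial markers in LF, 9 of 18 measured, stood at 7.11 (6.95 to 7.24) at day 7 and 7.26 (7.20 to 7.37) at day 0, with 1 of them lower. Of the B and plasma cell markers 3 of 18 were measured, and 0 were called in LF at either day. Proximal tubule markers, 11 of 16 measured, had 2 lower, Slc5a2 at -0.74 (adjusted p = 0.00163) and Lrp2 at -0.28 (0.02). Markers of the loop, distal tubule and collecting duct, 18 of 20 measured, had 3 lower, Slc14a2 at -0.60 (0.00285), Slc8a1 at -1.19 (0.00929) and Calb1 at -0.94 (0.0269). Of 8 measured podocyte markers 1 was lower, Ptprq at -1.36 (4.58e-08). The part of these cell types in the Cd200 and Cd48 results was not tested. At day 10 in LF, where Cd24 rose, 2 macrophage markers rose, Gpnmb by 1.08 ± 0.18 (adjusted p = 0.000194) and Itgam, and the list mean was 6.26 (6.15 to 6.32). Of all probe sets, 0.887% were called in LF at day 10 and 0.591% rose. In the same comparison Tagln, of smooth muscle, rose by 0.84 (adjusted p = 0.000745) and Scnn1a, of the collecting duct, by 0.64 (0.0277). Lower there were the tubule markers Slc5a2 at -0.67 (0.00623), Slc14a2 at -0.53 (0.0144) and Aqp2 at -0.63 (0.0483), and the podocyte marker Ptprq at -0.88 (0.000217). The part of these cell types in the Cd24 result was not tested.

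Between strains, Cd1d1 was higher in F than in L and in FL than in LF, while Cd47 and Cd82 were lower in FL than in LF and Cd302 was lower in both pairs. The F test over the strain means of the 3 days called 6 of the 38 members, or 15.8%, against 12.9% of all probe sets: Cd1d1 (F = 13.7, adjusted p = 8.31e-05), Cd47 (0.00153), Cd302 (0.00292), Cd82 (0.00725), Cd200 (0.0123) and Cd48 (0.0287). In F against L, 2 members were higher and 1 lower, together 7.89% against 7.32% of all probe sets, of which 2.44% were higher and 4.88% lower. In FL against LF, 1 was higher and 4 were lower, together 13.2% against 10.7%, of which 2.67% were higher and 8.07% lower. The surplus of lower calls over all probe sets depended on scaling. With a second quantile normalization, 15.1% were called in FL against LF and 7.18% were lower. FL against F and LF against L gave 0 members each, against 0.352% and 0.693% of all probe sets. Between FL and F the differences of the members lay between -0.30 and 0.14, and between LF and L between -0.25 and 0.16. With the run as a block, F against L gave 6 members, against 10.3% of all probe sets in that fit, adding Cd47 (-0.25, adjusted p = 0.00745), Cd82 (-0.16, adjusted p = 0.0131) and Cd8a (0.25, adjusted p = 0.034). In FL against LF the block gave 7 members, against 16.8% of all probe sets, adding the tetraspanin Cd63 (-0.20, adjusted p = 0.00534) and Cd2ap (-0.27, adjusted p = 0.0131). The blocked F test called 8 members, against 19.6% of all probe sets, and these 2 genes were the additions. The pairs share arrays, so their values are given side by side without a test of likeness.

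Cd1d1, the lipid presenting relative of histocompatibility molecules, was higher in F than in L and in FL than in LF. Over the 12 arrays of a strain, its log2 signal had a lowest, median and highest value of 6.66, 6.94 and 7.12 in FL, 6.80, 6.93 and 7.10 in F, 6.26, 6.64 and 6.88 in LF, and 6.52, 6.64 and 6.93 in L. The strains overlapped, although the medians of FL and F lay above every LF array. F exceeded L by 0.26 ± 0.057 (95% interval 0.14 to 0.37, adjusted p = 0.00223) and FL exceeded LF by 0.26 ± 0.057 (0.14 to 0.38, adjusted p = 0.00139), each on all 4 runs, by 0.13 to 0.38 and by 0.07 to 0.50. The call in F against L was lost without replicate 2 (adjusted p = 0.0542), and that in FL against LF without replicate 3 (0.107). FL differed from F by -0.03 ± 0.057 (-0.15 to 0.08) and LF from L by -0.04 ± 0.057 (-0.16 to 0.08).

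Cd302, Cd47 and Cd82 ran the other way. The lectin receptor Cd302 had a median log2 signal of 7.12 in FL (range 6.86 to 7.70), 7.34 in F (6.72 to 7.67), 7.56 in LF (7.23 to 7.83) and 7.60 in L (7.11 to 8.04). It was lower in F than in L, at -0.34 ± 0.10 (adjusted p = 0.0293), and lower in FL than in LF, at -0.37 ± 0.10 (adjusted p = 0.0129), on all 4 runs of both pairs, with overlapping arrays. The call of Cd302 in F against L was lost in 11 of 52 fits that left out an array or a run (adjusted p 0.0114 to 0.147), among them each fit without 1 of the 4 runs. Cd47, the signal that keeps phagocytes from engulfing a cell, had a median of 9.11 in FL (8.51 to 9.44), 9.12 in F (8.72 to 9.32), 9.49 in LF (9.12 to 9.64) and 9.37 in L (8.88 to 9.63). It was lower in FL than in LF, at -0.37 ± 0.086 (adjusted p = 0.00224), and stood at -0.25 ± 0.086 in F against L (adjusted p = 0.0681). Without replicate 3, Cd47 lost its calls in FL against LF (adjusted p = 0.0556) and in the strain F test (0.113). The tetraspanin Cd82 had a median of 10.12 in FL (9.63 to 10.31), 10.20 in F (9.83 to 10.26), 10.32 in LF (10.12 to 10.50) and 10.30 in L (10.05 to 10.47). It was lower in FL than in LF, at -0.23 ± 0.060 (adjusted p = 0.00842), and stood at -0.16 ± 0.060 in F against L (adjusted p = 0.105). The Cd82 call in FL against LF was lost without replicate 2 (0.0747) or replicate 3 (0.0727). Its call in the strain F test was lost without replicate 1 (0.0596), 2 (0.0682) or 3 (0.11).

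Cd200 and Cd48, the genes that moved with treatment in LF, also differed between strains. Cd200 had a median of 6.72 in FL (6.10 to 6.98), 6.83 in F (6.35 to 7.01), 7.20 in LF (6.27 to 7.45) and 6.96 in L (6.65 to 7.35). It was lower in FL than in LF over the 3 days, at -0.36 ± 0.10 (adjusted p = 0.0147), and the call was lost without the 5 arrays of lowest SD (0.182), as were those of Cd302 in this pair (0.113) and of Cd200 in the strain F test (0.0685). The day 7 arrays of LF lie at the low end of that strain's range, and the strain means include them. Cd48 had a median of 8.62 in FL (8.09 to 9.01), 8.90 in F (8.40 to 9.26), 8.71 in LF (7.99 to 9.11) and 8.65 in L (8.19 to 8.93), and was higher in F than in L by 0.27 ± 0.084 (adjusted p = 0.0393). This call of Cd48 was lost in 16 of 52 fits that left out an array or a run, and its call in the strain F test in 10 of 52, each with an adjusted p of up to 0.389. FL stood at -0.30 ± 0.084 against F (adjusted p = 0.163).

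**Figure D4:**
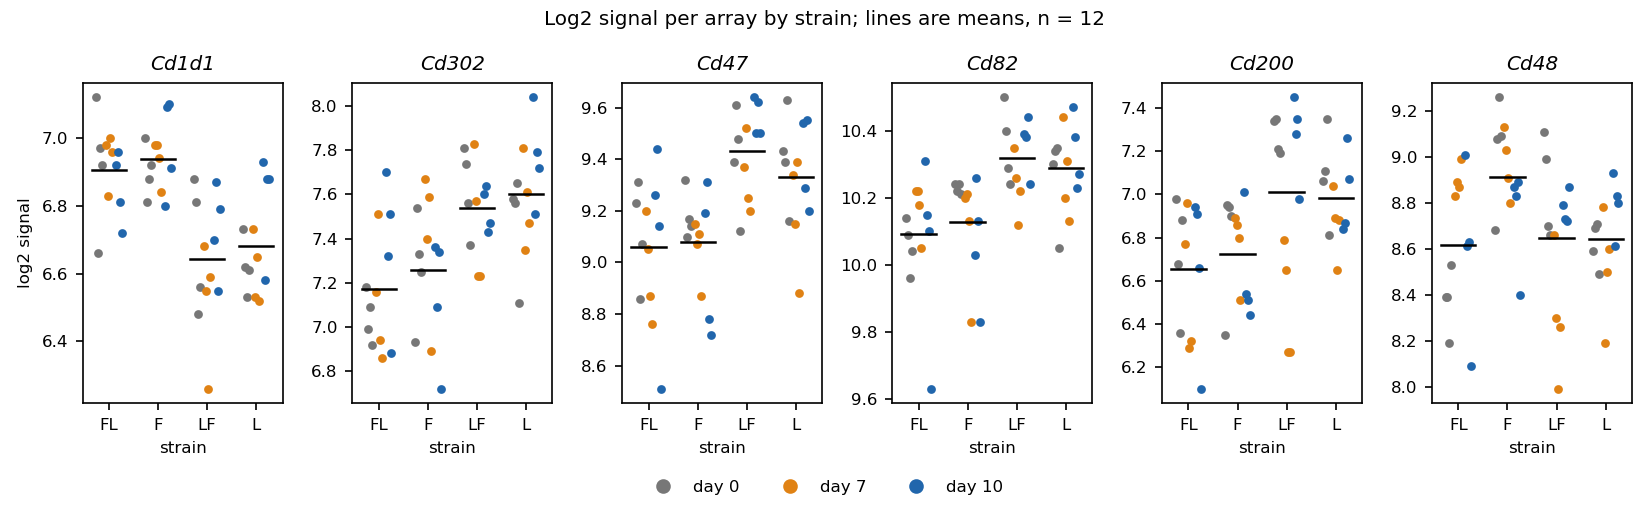
Log2 signal on each array, by strain and coloured by day, of the 6 CD-numbered genes called by the F test on strain, with the mean of the 12 arrays of a strain as a line and an axis for each gene. The Cd1d1 means are higher in FL and F, those of Cd302, Cd47 and Cd82 are lower there, and arrays of the strains overlap in every panel.

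Some macrophage markers differed in the same strain comparisons. In F against L, 4 of 13 were lower, Adgre1, C1qc, C1qa and Lyz2. In FL against LF, 5 of 13 were lower, Gpnmb, Ctss, Lyz2, C1qa and C1qc. Of all probe sets, 7.32% were called in F against L, with 2.44% higher and 4.88% lower. In FL against LF 10.7% were called, with 2.67% higher and 8.07% lower. This surplus of lower calls depended on scaling, with 7.18% lower in FL against LF after a second quantile normalization. Sirpa, whose product is the phagocyte receptor of CD47, was lower in F than in L (-0.38 ± 0.070, adjusted p = 0.000165) and lower in FL than in LF (-0.28 ± 0.070, adjusted p = 0.00494). Endothelial markers were lower in F than in L for 3 of 9, Emcn, Icam2 and Egfl7, and gave 0 calls in FL against LF. Of 8 podocyte markers 2 were lower in each pair, among them Ptprq at -0.78 in F against L and -1.06 in FL against LF. Of 11 markers of smooth muscle, pericytes and fibroblasts, 1 was higher and 2 were lower in F than in L, and 3 were lower in FL than in LF, with Cspg4 and Notch3 lower in both pairs. Of 11 proximal tubule markers 2 were higher and 1 lower in F than in L, and 1 was higher and 3 lower in FL than in LF. Of 18 markers of the loop, distal tubule and collecting duct, 1 was higher and 2 were lower in each pair. The part of these cell types in the strain differences of the members was not tested. T cell and natural killer cell markers gave 1 higher call in F against L and 0 in FL against LF.

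CD antigens whose genes carry other symbols were set beside the family, from a list chosen with earlier results of these data known, of which 72 of 136 genes were measured. At day 7 in the strain mean, 0 of the 72 rose and 13 fell, where 4.94% of all probe sets were called and 3.75% fell. The median of the 72 was -0.071, beside -0.029 for all probe sets. The smallest p-values were those of Fcgr3a, an Fc receptor of natural killer cells and macrophages (CD16), at -0.56 ± 0.14 (adjusted p = 0.00929), Klrk1, a natural killer cell receptor, at -0.33 ± 0.082 (0.0119), Podxl, a podocyte and endothelial sialomucin, at -0.18 ± 0.045 (0.0133), and L1cam, an adhesion molecule, at -0.28 ± 0.072 (0.0158). The others were Prom1, Ncam1, Mme, Bst2, Nt5e, Anpep, Thy1, Jag1 and Fgfr2, among which Mme and Anpep encode peptidases of the proximal tubule brush border. At day 10, 1 of the 72 rose, the integrin Itgam (CD11b), at 0.14 ± 0.038 (adjusted p = 0.0306), and 0 fell, against 2.41% of all probe sets called. In LF at day 7, 0 rose and 2 fell, Fcgr3a at -1.27 ± 0.27 (adjusted p = 0.00605) and Bst2 at -0.65 ± 0.15 (0.0114), against 2.26% of all probe sets called. In LF at day 10, 2 rose, Itgb4 at 0.43 ± 0.097 (0.0108) and Itgam at 0.32 ± 0.077 (0.0232), against 0.887% called. By strain, 5 were higher and 11 lower in F than in L, and 4 were higher and 9 lower in FL than in LF. Of all probe sets, 7.32% were called in F against L and 10.7% in FL against LF. The share of calls was not tested between the lists.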

How the data were processed

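Whole-transcript arrays were hybridised with biotin-labelled target made, per the labels' protocols, from Trizol-extracted and ribosomal RNA depleted kidney RNA. The deposited values are log2 signals, 1 per probe set, with 2 decimals, and RMA and limma are listed, with no version, in the submitters' processing notes. Of 8797 probe sets, 7603 had 1 symbol, 409 several and 785 none, and 7584 matched by Entrez identifier. There were 0 missing values and 0 columns of other series. The number of arrays limits the precision.

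All 48 arrays entered 1 fit with a mean for every group, in limma 3.58.1 in R 4.3.3 (lmFit and eBayes, 36 residual and 3.69 prior degrees of freedom), adjusted by Benjamini and Hochberg over all probe sets at 0.05. Contrasts were treated days against day 0 in the strain mean and per strain, strain pairs over the mean of days, and F tests for strain (3 degrees of freedom) and strain by day (6). Intervals are 95% intervals from this fit. Replicate numbers are shared array runs, per the array names in the labels. Residuals of arrays with the same number correlated at 0.094 on average, and those of other numbers and groups at -0.031, with 40.9% of same-number pairs above 0.1. The fit was tried on residuals of these arrays, shuffled between arrays, with changes added to chosen probe sets. Of added log2 changes of 0.5, 80.8% were called in the strain mean at day 7 and 37% in LF at day 7. Of added changes of 1, 87.1% were called in LF at day 7. Calls of unchanged probe sets, among 8797, numbered 48 in the strain mean at day 7, 9 in LF at day 7 and 0 in F against L. In the strain mean at day 7, changes of 0.5, 1 and 2 went to 73, 62 and 65 probe sets. Of these, 80.8%, 100% and 100% were called. In that shuffle, the unchanged share of the calls therefore lay above the nominal 0.05, in the comparison that gave the Cd200 call.

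The members, the gene lists and the tests were chosen with earlier results of these data known. Members were named when called, when among the 5 highest or lowest by mean, or to account for a role in full, and up to 4 companion genes by smallest p. Members named for groups that do not overlap, for coming close to the threshold, or with other genes of the lists, were chosen after their values were seen. Alternatives were the run as a block, a second quantile normalization, subtraction of array medians, array SD as a covariate, the dimmest 25% of probe sets left out, a variance trend, and each run or array left out. Leaving out the 5 arrays of lowest SD, and the FL minus LF response at day 7, were added after the data were seen. The 10 cell type lists were summarised, and those of granulocytes, podocytes, smooth muscle, distal tubule and erythroid cells are given under other observations. Calls in these lists, and among CD antigens with other symbols, come from the main fit alone, whose share of lower calls depended on processing.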

Additional observations from a re-analysis of the deposited data

Results flagged for a closer look

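In 28 of 456 groups of 4 arrays (6.14%), 1 array of a gene stood apart from the other 3 by Dixon's criterion, which flags about 1 in 20 groups by chance. All values are log2 signals, given for the array that stood apart. Among the T cell and natural killer cell antigens, Cd2 was 2.83 on LF day 7 replicate 2 against 3.05 to 3.09 on the other 3. Cd5 read 5.20 on F day 0 replicate 2 against 4.86 to 4.88 on the other 3. Cd8a stood at 5.79 on F day 10 replicate 4 against 5.23 to 5.32 on the other 3. Cd40lg was 1.96 on L day 10 replicate 3 against 2.37 to 2.45 on the other 3. Cd48 read 8.40 on F day 10 replicate 4 against 8.83 to 8.89 on the other 3. Cd69 stood at 3.38 on LF day 0 replicate 2 against 3.10 to 3.13 on the other 3. Cd96 was 3.49 on L day 0 replicate 4 against 3.19 to 3.22 on the other 3. Cd244l1 read 3.04 on L day 7 replicate 1 against 2.46 to 2.48 on the other 3.

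Among B cell, myeloid and costimulatory genes, Cd79b was 4.75 on LF day 7 replicate 3 against 4.26 to 4.29 on the other 3. Cd14 read 6.14 on LF day 0 replicate 4 against 6.44 to 6.50 on the other 3. Cd14 stood at 6.40 on FL day 10 replicate 1 against 6.27 to 6.29 on the other 3. Cd200r1 stood at 3.07 on F day 10 replicate 2 against 2.46 to 2.49 on the other 3. Cd302 was 7.11 on L day 0 replicate 4 against 7.56 to 7.65 on the other 3. Cd80 read 4.11 on FL day 10 replicate 2 against 4.72 to 4.83 on the other 3. Cd86 stood at 5.39 on FL day 0 replicate 1 against 5.46 to 5.47 on the other 3. Cd200 was 6.35 on F day 0 replicate 1 against 6.90 to 6.95 on the other 3.

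Among the tetraspanins, other membrane antigens and the adaptor, Cd82 was 10.05 on L day 0 replicate 4 against 10.30 to 10.35 on the other 3. Cd151 read 9.39 on FL day 10 replicate 4 against 9.78 to 9.85 on the other 3. Cd1d1 stood at 6.58 on L day 10 replicate 2 against 6.88 to 6.93 on the other 3. Cd320 was 9.38 on F day 0 replicate 2 against at most 9.02 on the other 3. Cd99l2 read 7.17 on LF day 0 replicate 1 against 7.40 to 7.44 on the other 3. Cd2ap stood at 7.80 on FL day 10 replicate 4 against 8.57 to 8.69 on the other 3. The endosomal tetraspanin Cd63 was flagged in 6 groups. Its log2 signal was 9.42 on FL day 0 replicate 4 against 9.58 to 9.60 on the other 3. It was 9.65 on F day 0 replicate 3 against 9.57 to 9.58 on the other 3. Its log2 signal was 9.25 on FL day 10 replicate 4 against 9.70 to 9.79 on the other 3. It was 10.15 on LF day 10 replicate 1 against 9.78 to 9.83 on the other 3. Its log2 signal was 9.83 on LF day 7 replicate 1 against 9.56 to 9.59 on the other 3. It was 9.82 on L day 7 replicate 1 against 9.59 to 9.61 on the other 3.

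FL day 10 replicate 4, the array of lowest SD over probe sets at 2.29, accounts for 3 of these values, those of Cd151, Cd2ap and Cd63. L day 0 replicate 4 also accounts for 3, those of Cd302, Cd82 and Cd96. The day 7 response of Cd48 differed between FL and LF by 1.08 on the log2 scale, with all 4 runs higher in FL and all 4 lower in LF. That test of the difference itself was chosen after these values were seen, and its p-value does not cover that choice. The strain by day F test did not call Cd48 (adjusted p = 0.0515). No explanation of these values was tested.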

How the results depend on the processing

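Counts of members called changed as follows, with the share of all probe sets called in the same fit in parentheses. With the replicate block, that is the array run, 3 members passed in the strain mean at day 7 (11.1%), 1 at day 10 (3.38%) and 4 in LF at day 7 (8.21%). It gave 6 in F against L (10.3%) and 1 in the strain by day test (0.409%). Without the block these counts were 1 (4.94%), 0 (2.41%), 2 (2.26%), 3 (7.32%) and 0 (0.193%). The block moved no other count by more than 1.5 times. A second quantile normalization gave 1 in FL at day 7 (0.227%), 8 in F against L (11.1%), 4 higher and 4 lower, and 1 in the strain by day test (0.33%). Subtraction of array medians gave 1 in the strain mean at day 10 (4.06%), 1 in FL at day 7 (0.261%) and 6 in F against L (10.3%). It gave 1 in FL against F (0.602%), 10 in the strain F test (16.6%) and 1 in the strain by day test (0.364%). Array SD as a covariate gave 0 in the strain mean at day 7 (5.6%) and 2 at day 10 (5.77%). It gave 1 in FL (0.284%) and 1 in LF (3.09%) at day 7, and 2 in LF at day 10 (2.47%). Between strains it gave 7 in F against L (12%) and 8 in FL against LF (13.9%), 4 higher and 4 lower. The strain F test then called 10 (18%) and the strain by day test 1 (0.489%). Leaving out the dimmest 25% of probe sets gave 1 in the strain mean at day 10 (3.55%) and 1 in the strain by day test (0.349%). A variance trend gave 1 in the strain by day test (0.227%). Without the 5 arrays of lowest SD the counts were 0 in the strain mean at day 7 (3.41%), 1 at day 10 (2.61%), 1 in LF at day 7 (1.42%) and 3 in FL against LF (7%).

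Over 52 fits that left out 1 run or 1 array, the counts ranged from 0 to 1 in the strain mean at day 7 and at day 10, 0 to 2 in LF at day 7, 0 to 1 in LF at day 10, 0 to 6 in F against L, 0 to 1 in FL against F, 0 to 7 in FL against LF, 2 to 8 in the strain F test and 0 to 1 in the strain by day test. Other counts stayed at 0. The share of all probe sets called was not taken in these 52 fits. Without replicate 2, F against L gave 0, FL against LF 2 and the strain F test 3. Without replicate 3 they gave 1, 0 and 2. F against L gave 1 without L day 0 replicate 1, 5 without L day 0 replicate 4 and 6 without FL day 10 replicate 4.

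Of 1239 alternative values of the named differences, 0 reversed, 100 lost the call and 29 gained it. The cause of these changes was not tested, and fits without a run or an array also hold fewer samples. With 4 arrays per group, standard errors within a strain ran from 0.078 to 0.21 on the log2 scale. Members in the lowest 25% by signal give no sign that a transcript was present or absent.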

Other observations

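The other cell type lists, chosen with earlier results of these data known, moved as follows. Among all probe sets, 4.94% were called in the strain mean at day 7 and 2.41% at day 10. Of the loop, distal tubule and collecting duct markers 18 of 20 were measured, and 0 rose and 11 fell in the strain mean at day 7 (median -0.247), with 1 higher and 8 lower at day 10 (median -0.212). Of the proximal tubule markers 11 of 16 were measured, and 0 rose and 4 fell at day 7. The list for smooth muscle, pericytes and fibroblasts, with 11 of 16 genes measured, gave 3 higher and 1 lower at day 7 and 4 higher and 0 lower at day 10. Podocyte markers, 8 of 14 measured, gave 0 higher and 2 lower at day 7 and 0 higher and 1 lower at day 10. Granulocyte and mast cell markers, 12 of 20 measured, gave 0 calls at day 7 and 1 higher at day 10, and erythroid and platelet markers, 4 of 13 measured, gave 0 at both days. Of the genes named here, Podxl, Thy1 and Itgam stand in a cell type list as well as among the CD antigens with other symbols.

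Some CD-numbered genes are close neighbours in RefSeq gene order. Cd8a and Cd8b, with 0 genes between them, differed at day 7 in the strain mean by 0.11 and -0.13, and Cd5 and Cd6, also with 0 between, by 0.08 and -0.05. Cd48 and Cd244l1, with 3 genes between them on chromosome 13, differed in LF at day 7 by -0.56 and -0.13, and Cd244l1 did not pass the test (limma adjusted p = 0.597).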
